A study of Drosophila melanogaster with 38 samples.

Results

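The genes described here encode nuclear subunits of the complexes of oxidative phosphorylation (OXPHOS) in Drosophila melanogaster. They were taken by symbol from the protein-coding genes of the BDGP6 annotation on chromosomes 2, 3, 4 and X: symbols that start with ND- for complex I, UQCR- for complex III, COX and a digit for complex IV, and ATPsyn for complex V. This gave 80 of 13945 genes, of which 12 lay on the X chromosome and 68 on autosomes. Complex I had 40 genes, complex III 9, complex IV 16 and complex V 15. The symbols do not take in complex II, nor subunits with older names such as blw, Cyt-c1 or cype, which were counted apart. A gene was scored as carrying a peak when at least part of an MSL2 peak lay no more than 1 kb from one of its annotated transcription start sites (TSS), upstream or downstream.

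The study examined dosage compensation on autosomes by chromatin immunoprecipitation and sequencing (ChIP-seq) in larvae of the third instar, whose front part was dissected and fixed. The labels list 38 libraries, 19 from females and 19 from males, with 1 library for each combination of sex, strain and target, so that no group held a replicate. MSL2 was precipitated in 2 libraries, a male and a female one, from larvae with the msl-2 mutant alleles msl-2227/msl-2km, the driver tub-Gal4 and the FLAG-tagged transgene UAS-msl-2::3Flag. The driver is active in most cells, so the protein measured was made from a transgene and not under the gene's own control. The control for the tag, also 1 library of each sex, came from msl-2227/km / CyO-GFP ; + / + larvae without the transgene, precipitated with the antibody M2 against FLAG. The remaining libraries were histone, histone mark and MLE libraries of White-eyed (w1118) Oregon-R larvae, H3 and H4K16ac libraries of larvae heterozygous (msl-2-delta-7/10 / CyO-GFP) or null (msl-2-delta-7 over msl-2-delta-10) for msl-2, and inputs. What was analysed here were 3 lists of MSL2 peaks, which name no library, sex or control: 159 intervals called high-affinity sites (HAS), 680 other intervals on X and 1669 on chromosomes 2, 3 and 4. The lists hold positions only, so that depth is unknown and the intervals given below, over genes or peaks, cover counting error only.

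Complex I oxidises NADH, complex III passes electrons from ubiquinol to cytochrome c, complex IV reduces oxygen with them, and complex V, the ATP synthase, uses the proton gradient so formed. Nearly all cells express most of these genes, and the subunits of a complex are made in fixed proportion. MSL2 is the subunit that restricts the MSL complex to males, where it binds the single X chromosome and raises its transcription. HAS are the sites from which the complex is held to spread along X, and many contain a GA-rich sequence. The OXPHOS genes spread over X and autosomes therefore belong to the same assemblies but lie on chromosomes that the MSL complex treats differently.

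An MSL2 peak lay at the TSS of 13 of the 80 OXPHOS genes, or 16.2% (95% Wilson interval 9.75 to 25.8). Among all protein-coding genes the share was 16.2% too, with 2265 of 13945 genes. On X, 5 of 12 OXPHOS genes carried a peak, which is 41.7% (19.3 to 68.0) beside 30.9% of all X genes. On autosomes it was 8 of 68 genes, 11.8% (6.08 to 21.5) beside 13.5%. The X share exceeded the autosomal one by 29.9 percentage points (95% Newcombe interval 5.52 to 56.9). It was 10.8 points (-3.78 to 39.1), an interval that included 0, both when a peak was counted only for the gene with the nearest TSS and when only intervals of at least the median width of their list were kept. Over all protein-coding genes the same difference was 17.4 points (15.4 to 19.5), which lies inside the interval of the OXPHOS genes. Set against the other genes of the same chromosomes, OXPHOS genes differed by 10.8 points on X (-11.6 to 37.3). On autosomes they differed by -1.74 points (-7.46 to 8.04), and both intervals included 0. With the nearest gene only, or the wider intervals only, 16.7% of X-linked OXPHOS genes had a peak, though not the same genes. All X genes then stood at 23.0% and 18.9%, so the X-linked OXPHOS genes lay below them. By arm, 3 of 16 genes on 2L had a peak (12.4% of all genes of the arm), 1 of 19 on 3L (11.8%), 0 of 15 on 2R (14.8%), 4 of 16 on 3R (14.9%) and 0 of 2 on chromosome 4 (3.75%). The interval for 2R reached up to 20.4%, which includes the share of all genes there.

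**Figure D1:**
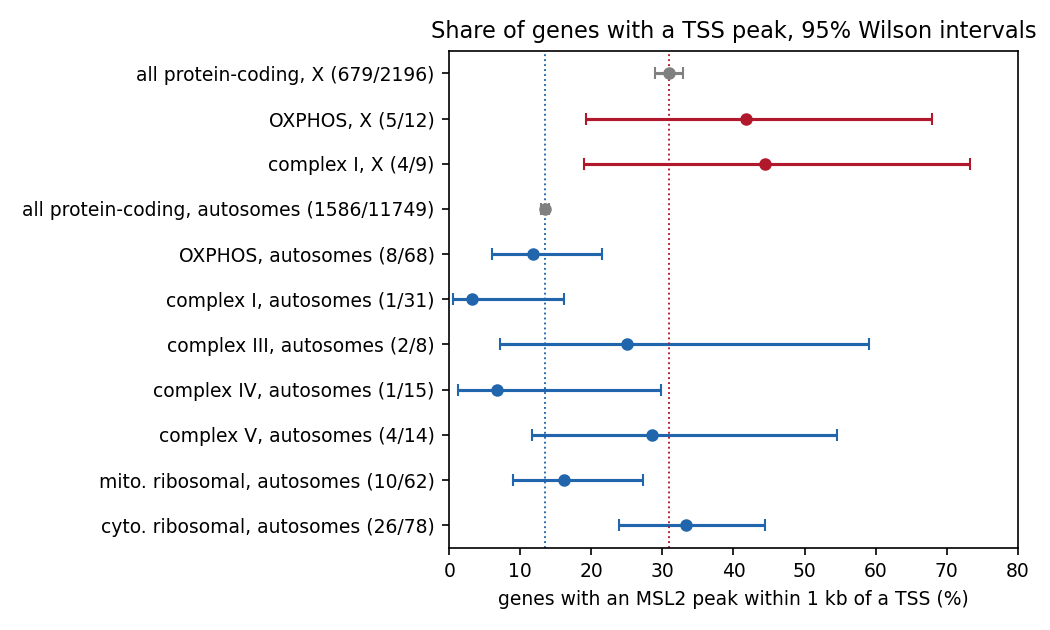
Percentage of genes with an MSL2 peak within 1 kb of a TSS (x axis) for gene groups on X and on autosomes, with the number of genes with a peak and the number of genes in brackets; points are shares, bars are 95% Wilson intervals and dotted lines mark all protein-coding genes on X (30.9%) and on autosomes (13.5%). The OXPHOS genes of X stood at 41.7% and those of autosomes at 11.8%, with complex I at 44.4% on X and 3.23% on autosomes.

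Complex I had 9 of the 12 X-linked genes. A peak lay at 4 of its 9 X-linked genes (44.4%) and at 1 of its 31 autosomal genes (3.23%, 0.572 to 16.2), a difference of 41.2 points (12.6 to 70.2). All protein-coding genes stood at 30.9% and 13.5%, and their difference of 17.4 points lies inside that interval. With each peak counted only for the nearest gene, complex I kept ND-75 and ND-B18. This is 2 of 9 on X and 0 of 31 on autosomes, a difference of 22.2 points (2.87 to 54.7). All genes then stood at 23.0% on X and 9.73% on autosomes, and their difference of 13.3 points lies inside that interval. With only the wider intervals, complex I had a peak at 1 of 9 and 1 of 31 genes. The difference of 7.89 points (-7.97 to 40.4) had an interval that included 0, and all genes stood at 18.9% and 6.60%. The other complexes together had a peak at 1 of 3 X-linked genes and at 7 of 37 autosomal ones (18.9%, 9.48 to 34.2), a difference of 14.4 points (-16.8 to 61.3). On autosomes alone, complex I lay 15.7 points below the other complexes, with an interval from -31.2 to 0.347 that reached 0. These splits by complex and chromosome together were made after the counts were known. Over X and autosomes, 12.5% of complex I genes (5.46 to 26.1), 22.2% of complex III (6.32 to 54.7), 12.5% of complex IV (3.50 to 36.0) and 26.7% of complex V (10.9 to 52.0) had a peak. In each of the 6 pairs of complexes the interval of the difference included 0, from -14.2 points between complexes I and V (-40.4 to 6.66) to 9.72 points between complexes III and IV (-18.7 to 43.5).

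The X-linked genes of complex I with a peak encode a core subunit and accessory subunits. ND-75, the counterpart of human NDUFS1, carries iron-sulfur clusters of the arm that takes up NADH. Its peak, at chrX:8251492-8251705 (dm6, as all coordinates here), was 214 bp wide, covered the TSS and had its midpoint 89 bp downstream of it, in the 5′ UTR. ND-18, the counterpart of human NDUFS4, is an accessory subunit of that arm. Its peak was the widest of the X-linked ones, with 768 bp at chrX:19491764-19492531 and rank 62 of the 680 other X peaks. It covered the ND-18 TSS, while its midpoint lay 274 bp upstream of it and nearer, at 136 bp, to the TSS of pcm, the gene of an exoribonuclease. ND-ASHI and ND-B18 encode accessory subunits of the membrane arm (human NDUFB8 and NDUFB7). The 209 bp peak of ND-ASHI at chrX:6679474-6679682 ended 356 bp before its TSS. Its midpoint was 62 bp away from the start of Fum1, the gene of the TCA cycle enzyme fumarase, which starts next to it. ND-B18 had a pair of peaks of 215 and 211 bp and a pair of annotated TSS positions. The upstream peak had its midpoint 907 bp before the first of these. The other covered the second TSS, with its midpoint 56 bp before it, in an annotated 5′ UTR of the gene. Both were also within 1 kb of a TSS of hiw, the gene of an E3 ubiquitin ligase. None of the 5 peaks belonged to the HAS list.

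The sequences of these X peaks are printed so that they can be set beside the words searched for below, on the coding strand of the OXPHOS gene and limited to stretches of up to 160 bases outside annotated UTRs. They were read from the RefSeq genome of release 6. Capitals mark matches, on either strand, to a GA repeat (GAGAGAGA, up to 1 mismatch), a CA repeat (CACACACA, up to 1 mismatch), the DNA replication-related element or DRE (TATCGATA, 0 mismatches) and the core of the promoter element called motif 1 (GGTCACAC, 0 mismatches). Some matches of the CA repeat and of motif 1 can overlap, since the words share bases. ND-B18 is represented by the upstream peak.
ND-75, chrX:8251492-8251596, minus strand: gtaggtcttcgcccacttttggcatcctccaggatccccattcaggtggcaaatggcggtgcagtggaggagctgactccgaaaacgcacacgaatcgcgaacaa
ND-18, chrX:19492261-19492420, plus strand: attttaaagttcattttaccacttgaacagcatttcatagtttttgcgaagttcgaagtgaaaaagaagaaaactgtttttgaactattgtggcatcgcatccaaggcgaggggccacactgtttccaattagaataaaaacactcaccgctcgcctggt
ND-ASHI, chrX:6679474-6679633, minus strand: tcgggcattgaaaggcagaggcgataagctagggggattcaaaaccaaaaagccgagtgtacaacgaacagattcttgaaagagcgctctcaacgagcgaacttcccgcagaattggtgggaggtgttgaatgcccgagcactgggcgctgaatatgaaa
ND-B18, chrX:15062774-15062933, plus strand: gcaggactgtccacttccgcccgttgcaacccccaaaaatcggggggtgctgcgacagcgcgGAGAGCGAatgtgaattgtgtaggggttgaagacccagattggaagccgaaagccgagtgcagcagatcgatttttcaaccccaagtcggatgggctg
COX6B, chrX:19744084-19744243, minus strand: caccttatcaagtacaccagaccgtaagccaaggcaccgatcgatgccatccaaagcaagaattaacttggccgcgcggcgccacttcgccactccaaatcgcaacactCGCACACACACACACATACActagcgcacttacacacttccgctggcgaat

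The stretches of ND-75, ND-18 and ND-ASHI held none of the 4 words, and that of ND-B18 held 1 GA repeat with a mismatch. Outside the stretches, the ND-18 peak of 768 bp held 1 match to motif 1. The other ND-B18 peak, not printed, held 2 matches to the CA repeat. The whole peaks of ND-75 and ND-ASHI held none of the words. COX6B, a subunit on the intermembrane side of complex IV, was the only one of the 16 complex IV genes on X. Its peak of 699 bp at chrX:19744084-19744782 covered the TSS with its midpoint 98 bp upstream, and it held 8 matches to the CA repeat, 7 of them in the stretch printed. The midpoint lay 2 bp from the shared TSS region of CG33932 and Rpp20, the latter a gene of an RNase P subunit, and CG18809 also had a TSS within 1 kb.

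Of the 12 X-linked genes, 7 had no peak at a TSS. They were ND-20 (nearest peak edge at 10059 bp), ND-24 (4128 bp), ND-B14.5A (6268 bp), ND-B16.6 (1731 bp), ND-MNLL (6965 bp), UQCR-14 (2800 bp) and ATPsyndelta (1202 bp). ND-20 and ND-24 (human NDUFS7 and NDUFV2) are core subunits with iron-sulfur clusters, like ND-75. Thus of the core subunits of complex I on X, 1 had a peak and 2 did not. ATPsyndelta encodes the delta subunit of the rotor stalk of the ATP synthase, and UQCR-14 a small subunit of complex III. ATPsyndelta was also the gene nearest to the 1 kb limit from outside. It was followed by ATPsynD at 1714 bp, ND-B16.6 at 1731 bp, ATPsynO at 1976 bp and ND-B8 at 2001 bp, while the genes nearest to the limit from inside were ATPsynG at 733 bp, ATPsynCF6 at 428 bp and ND-ASHI at 356 bp.

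The single autosomal complex I gene with a peak was ND-PDSW, an accessory subunit of the membrane arm (human NDUFB10). Its peak of 2935 bp at chr2L:3463289-3466223, ranked 2 of 1669 by width, lay mostly over the neighbouring gene msl-2. Of its length, 2824 bp lay inside msl-2 and 67 bp inside ND-PDSW, and 94.4% lay in exons of msl-2. Because the libraries carried an msl-2 transgene, DNA of the transgene can align to these exons, and its part in the peak was not tested. Without this peak, chosen for removal after the data were seen, 0 of 31 autosomal complex I genes had a peak and the count over all OXPHOS genes was 12 of 80.

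Both complex III genes with a peak encode the large core proteins that face the mitochondrial matrix, UQCR-C1 and UQCR-C2. The UQCR-C1 peak of 345 bp at chr3R:14890104-14890448 covered the TSS with its midpoint 45 bp downstream, in the 5′ UTR, and 71 bp from the TSS of CycC, which encodes cyclin C. The UQCR-C2 peak of 159 bp at chr3L:16584246-16584404 also covered a TSS, with its midpoint 52 bp downstream in the 5′ UTR, and no other protein-coding gene started within 1 kb of it. The other 7 complex III genes had their nearest peak at 2800 bp or farther. Complex IV had 1 autosomal gene with a peak of 15, COX7AL2, a copy of the gene of subunit VIIa. Its start was covered by a HAS interval of 4107 bp at chr2L:2196422-2200528, the widest of the HAS list and 1 of its 24 intervals on autosomes. This interval contained 16 matches to the GA repeat and 20 to the CA repeat. COX7AL2 had a further peak of 1190 bp at chr2L:2193426-2194615, from the autosomal list, in its intron and 416 bp from its downstream TSS. Neither of its peaks reached the start of another gene.

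The ATP synthase had peaks at 4 of 14 autosomal genes. Over X and autosomes, its count rose from 4 to 7 of 15 (46.7%) with 2 kb windows and fell to 6.67% with each peak counted for the nearest gene only. ATPsynC, the gene of the c subunit of the rotor ring, had a pair of wide peaks. That of 1051 bp at chr3R:31218757-31219807 covered all 3 of its TSS positions. That of 1481 bp at chr3R:31220602-31222082, ranked 18 of 1669, began 972 bp upstream and held 29 matches to the CA repeat. Its midpoint was in the 5′ UTR of CG12054, 640 bp from the TSS of that gene and 1712 bp from that of ATPsynC. ATPsyngamma encodes the central stalk that turns inside the catalytic head. Its peak of 150 bp at chr3R:29749133-29749282 covered a TSS with its midpoint 44 bp upstream, and 12 bp from the TSS of yata. ATPsynCF6, a subunit of the peripheral stalk, and ATPsynG, a subunit of the membrane part, had narrow peaks that did not reach their TSS. The ATPsynCF6 peak of 150 bp at chr3R:23356492-23356641 ended 428 bp before its TSS and had its midpoint 3 bp from that of Sec13, a gene of the COPII coat and the nuclear pore. The ATPsynG peak of 193 bp at chr2L:10977132-10977324 ended 733 bp before its TSS. The midpoint of this peak was 829 bp upstream of ATPsynG and 456 bp downstream of the TSS of SCAR, a regulator of actin assembly. The genes of the catalytic beta subunit, ATPsynbeta on chromosome 4, and of its copy ATPsynbetaL had their nearest peaks at 41709 and 15830 bp.

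**Figure D2:**
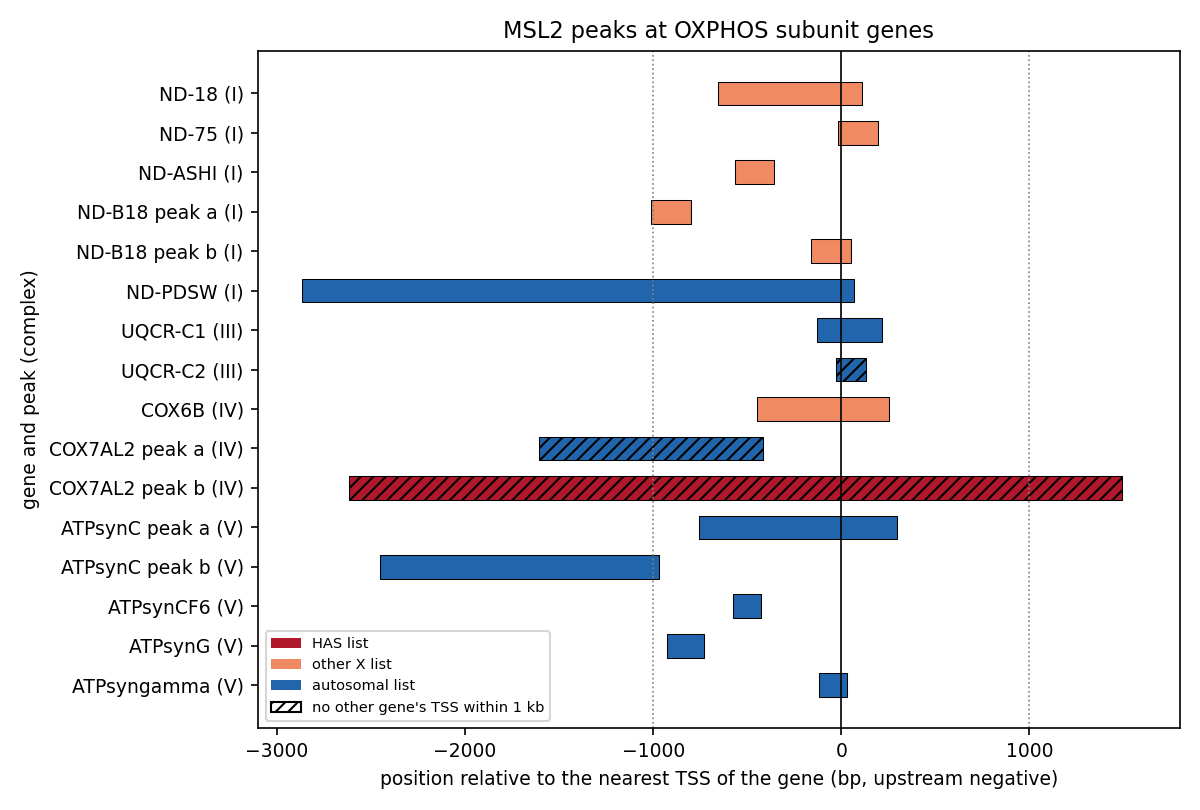
Extent of the 16 peaks at the 13 OXPHOS genes along the x axis, in bp from the nearest TSS of the gene with upstream negative, 1 row per peak and coloured by list; dotted lines mark 1 kb to either side and hatching marks peaks at no other gene's TSS. Peaks ranged from 150 to 4107 bp, 10 of 16 covered a TSS of their gene, and 13 of 16 also lay within 1 kb of another gene's TSS.

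Stretches of up to 160 bases outside UTRs are also printed for some of the autosomal peaks, marked like those of X. Those of ND-PDSW and UQCR-C1, among others, are left out. The stretches are examples picked from the peaks, and their contrast does not describe the autosomal peaks as a whole. Those of COX7AL2 (from the HAS interval) and ATPsynC (from the upstream peak) were the stretches with the most GA repeats and with the most matches to all words, and those of ATPsynG and ATPsyngamma come from narrow peaks. The COX7AL2 stretch lies in the intron of the gene. The ATPsynC stretch lies in an intron of the neighbour CG12054, 2145 bp upstream of the ATPsynC TSS, and the ATPsynG stretch in an intron of SCAR.
COX7AL2, chr2L:2197064-2197223, minus strand: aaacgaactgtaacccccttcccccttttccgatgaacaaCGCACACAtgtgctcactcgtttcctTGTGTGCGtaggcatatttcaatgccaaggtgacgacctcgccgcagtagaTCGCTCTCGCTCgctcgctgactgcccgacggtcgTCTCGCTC
ATPsynC, chr3R:31221775-31221934, minus strand: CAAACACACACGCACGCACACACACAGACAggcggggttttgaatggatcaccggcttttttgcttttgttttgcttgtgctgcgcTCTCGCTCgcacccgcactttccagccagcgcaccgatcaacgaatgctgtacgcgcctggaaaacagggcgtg
ATPsynG, chr2L:10977132-10977291, minus strand: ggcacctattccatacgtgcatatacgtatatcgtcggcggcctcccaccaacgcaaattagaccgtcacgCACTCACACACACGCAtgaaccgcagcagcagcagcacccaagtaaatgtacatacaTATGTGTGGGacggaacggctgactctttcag
ATPsyngamma, chr3R:29749164-29749218, minus strand: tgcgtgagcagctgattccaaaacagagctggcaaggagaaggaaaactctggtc

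The ATPsynC stretch held 10 matches to the CA repeat and 1 to the GA repeat, the ATPsynG stretch 7 to the CA repeat, and the ATPsyngamma stretch none. The COX7AL2 stretch held 3 matches to the GA repeat and 2 to the CA repeat.

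Most peaks at OXPHOS genes were shared with a neighbour. The 13 genes and their peaks formed 16 pairs, and in 13 pairs (81.2%, 57.0 to 93.4) the peak was also within 1 kb of the TSS of another protein-coding gene. Of all 2521 pairs of a gene and a TSS peak, 54.8% were shared in this way. All 6 peaks at X-linked OXPHOS genes were shared, and 7 of 10 at autosomal ones. Of the peaks at any protein-coding gene, each counted once, 36.0% on X and 37.0% on autosomes were shared. These are not like measures, since the OXPHOS peaks were reached through their genes and a shared peak can be reached through more genes. The like measure is the 54.8% of all pairs, which was not split by chromosome. Only 7 of the 16 pairs (43.8%, 23.1 to 66.8) had the OXPHOS gene as the gene with the TSS nearest to the peak midpoint, compared with 72.6% of all pairs. Those 7 pairs belonged to ND-75, ND-B18, UQCR-C1, UQCR-C2, COX7AL2 (both peaks) and ATPsynC. The midpoint lay at a median of 367 bp from the TSS of the OXPHOS gene (range 44 to 1712), against 155 bp over all pairs. The share that covered a TSS was 62.5%, beside 55.7%. Close neighbours were frequent among OXPHOS genes. Another gene started within 1 kb of 48 of the 80 (60.0%, 49.0 to 70.0), and of 42.9% of all genes. With such a neighbour 22.9% of OXPHOS genes had a peak and without one 6.25%, a difference of 16.7 points (-0.229 to 31.0). The same difference over all genes was 11.9 points (10.6 to 13.1).

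The OXPHOS genes were also placed by their distance to the nearest peak, whatever its size. The median distance from a TSS to the nearest peak edge was 1466 bp for the 12 X-linked genes (0 to 10059 bp) and 5103 bp for all X genes. Within 10 kb of a peak were 91.7% of the X-linked OXPHOS genes and 59.5% of all X genes. For autosomes the medians were 13144 bp (0 to 393783 bp) and 17756 bp, and 41.2% and 36.5% lay within 10 kb. These distances are given as descriptions and no interval was computed for them. By complex, the median of the autosomal genes was 13874 bp for complex I, 15386 bp for complex III, 6829 bp for complex IV and 12136 bp for complex V. ND-MLRQ on 3L was the farthest from a peak, at 393783 bp. The X-linked genes with a TSS peak lay at a median of 7265 bp from the nearest HAS on X (2310 to 85674 bp, n = 5), and those without one at 57565 bp (6268 to 155524 bp, n = 7). The ranges overlapped, and the medians over all X genes were 14340 bp with and 48096 bp without a TSS peak. COX6B at 2310 bp and ND-75 at 2363 bp were the closest to a HAS, and ND-MNLL at 155524 bp was the farthest. ND-18 had a peak although its nearest HAS was 85674 bp away, and the HAS at 6268 bp from ND-B14.5A was also its nearest peak.

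**Figure D3:**
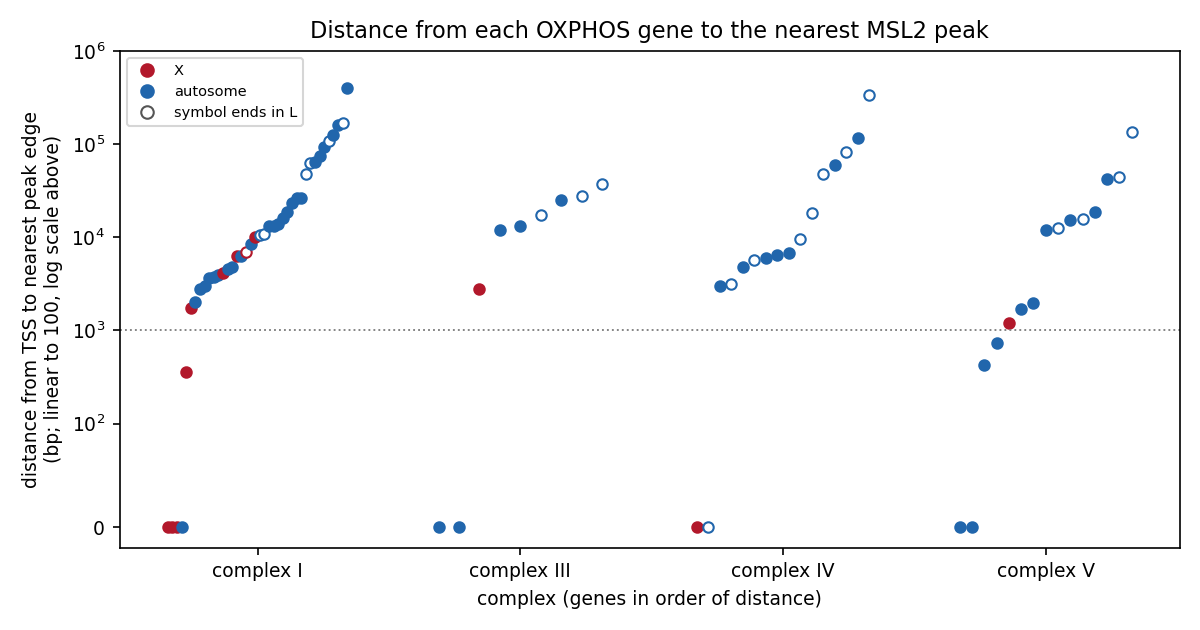
Distance in bp from a TSS to the edge of the nearest MSL2 peak (y axis, log scale above 100 bp, 0 for a covered TSS) for each of the 80 OXPHOS genes, in order within their complex; red points are X-linked, blue points autosomal, hollow points have a symbol that ends in L, and the dotted line marks 1 kb. The 13 genes below the line include 5 of the 12 X-linked genes, all of which lie at 10059 bp or less, while autosomal genes reach 393783 bp.

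**Figure D4:**
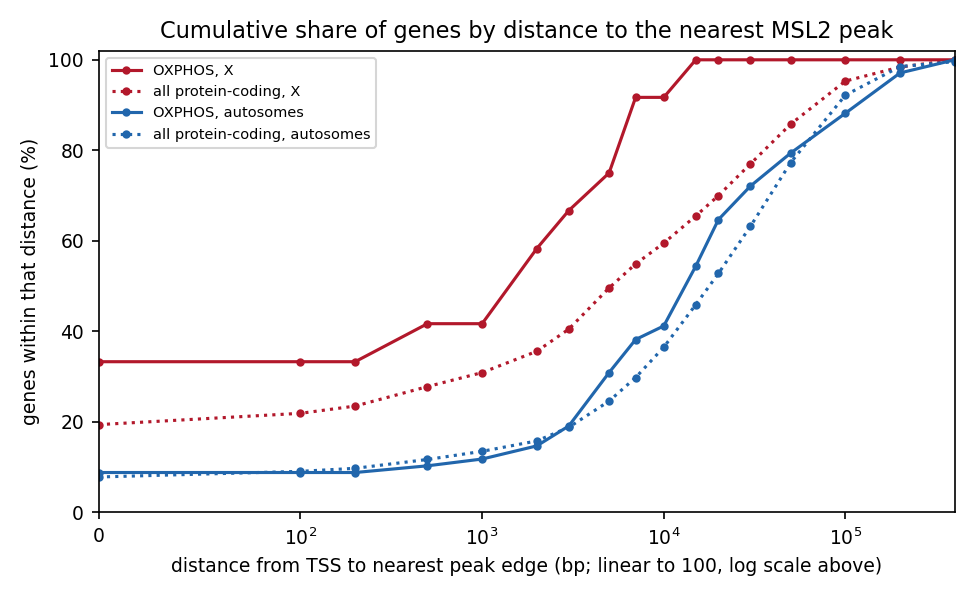
Cumulative percentage of genes (y axis) by distance from a TSS to the nearest peak edge in bp (x axis, log scale above 100 bp), for OXPHOS genes (solid) and all protein-coding genes (dotted) on X (red) and autosomes (blue). At 10 kb the X curves stand at 91.7% and 59.5% and the autosomal curves at 41.2% and 36.5%.

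Duplicated OXPHOS genes, many of them copies expressed mainly in testis, had a peak at a single gene. Their symbols end in L, or in L and a digit, which held for 22 genes, among them ND-MNLL, whose name only happens to end so. A peak lay at 1 of the 22 (4.55%, 0.807 to 21.8), which was COX7AL2, or at 1 of 21 without ND-MNLL (4.76%). Of the other 58 genes, 12 had a peak (20.7%, 12.3 to 32.8). The difference of 16.1 points had an interval from -3.06 to 28.8 that included 0, which it did not with 2 kb windows (23.0 points, 3.18 to 36.2). On autosomes alone the shares were 7 of 47 (14.9%) and 1 of 21, a difference of 10.1 points (-9.28 to 23.5). The genes were also counted by their number of annotated TSS positions, of which OXPHOS genes had at most 3. Of those with a single TSS, 3 of 46 had a peak (6.52%, 2.24 to 17.5) beside 11.4% of all such genes. With 2 TSS positions it was 7 of 29 (24.1%, 12.2 to 42.1) beside 24.6%, and with 3 it was 3 of 5 beside 36.8%.

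The promoters of OXPHOS genes were then searched for the same 4 words, in the 500 bp centred on the most upstream TSS. The core of motif 1 was found at 17 of the 80 (21.2%, 13.7 to 31.4), compared with 8.47% of all promoters. The DRE, bound by the factor DREF at many genes of growth and metabolism, was found at 15.0% (8.79 to 24.4) beside 9.90%. The GA repeat was found at 11.2% (6.03 to 20.0), below the 23.9% of all promoters, and the CA repeat at 31.2% (22.2 to 42.1) beside 39.6%. None of the 13 OXPHOS promoters with a peak had a DRE (0 to 22.8%), while 12 of the 67 without a peak did (17.9%), among them ND-19, COX4, COX7A and ATPsynE. The difference of -17.9 points had an interval from -28.7 to 6.06. Over all genes the DRE was more frequent at promoters with a peak than without one, by 4.37 points. Motif 1 stood at 4 of 13 promoters with a peak, those of ND-18, ND-PDSW, UQCR-C2 and ATPsynC, and at 13 of 67 without one, a difference of 11.4 points (-9.81 to 39.3). For the GA repeat the difference was 4.94 points (-9.70 to 32.3), of unsettled sign (-6.54 points in 1000 bp windows), and for the CA repeat 8.61 points (-15.3 to 36.3). The GA repeats at promoters with a peak were those of ND-ASHI and COX7AL2. Inside the 16 peaks themselves, 7 held a GA repeat (43.8%), 9 a CA repeat (56.2%), 4 motif 1 (25.0%) and 0 a DRE. In the HAS, other X and autosomal lists, in this order, a GA repeat was found in 79.2%, 36.8% and 38.9% of peaks, a CA repeat in 59.1%, 48.8% and 48.5%, motif 1 in 4.40%, 9.41% and 7.07%, and a DRE in 3.77%, 6.62% and 3.48%. Peaks differed in width, and its part in these shares was not tested.

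**Figure D5:**
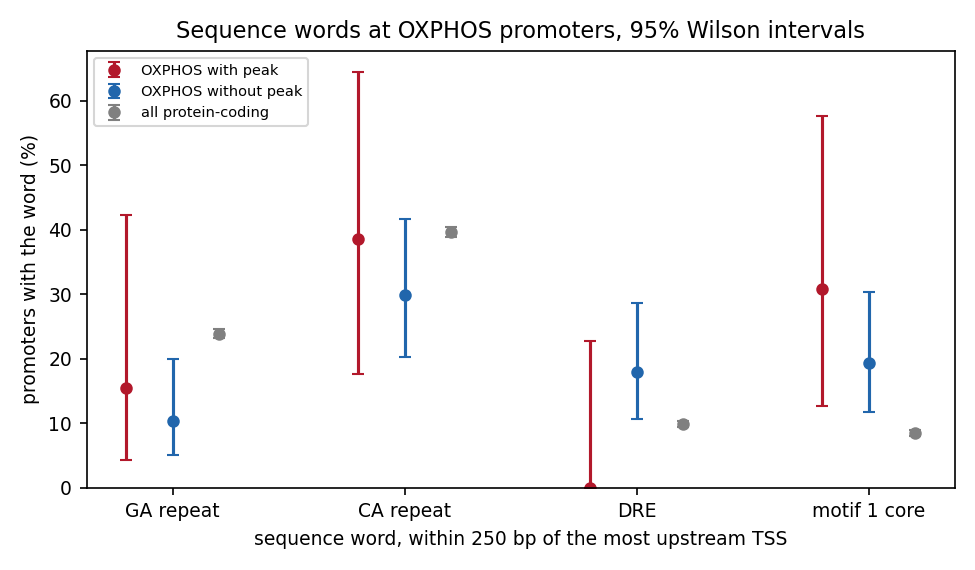
Percentage of promoters (y axis) with each of the 4 sequence words in the 500 bp centred on the most upstream TSS, for the 13 OXPHOS genes with a TSS peak (red), the 67 without one (blue) and all protein-coding genes (grey), with 95% Wilson intervals. The DRE stood at 0 of 13 OXPHOS promoters with a peak and 12 of 67 without, and motif 1 at 4 of 13 and 13 of 67, with overlapping intervals.

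Other genes of mitochondrial respiration were counted from related lists, to be read beside the 30.9% of all genes with a peak on X and 13.5% on autosomes. Subunits whose symbols the rule does not take in had a peak at 6 of 15 (40%, 19.8 to 64.3). These were 6 of 13 autosomal genes (46.2%, 23.2 to 70.9) and 0 of 2 on X. The autosomal interval lay above 13.5%. This is a description only, since the list was chosen with earlier results of these data known and was not counted under other windows or rules. The 11.8% of autosomal OXPHOS genes describes only those that the symbol rule takes in. The widest peaks were at Cyt-c1 (802 bp), the cytochrome of complex III, and blw (314 bp), the alpha subunit of the ATP synthase. They were followed by SdhB (200 bp), the iron-sulfur subunit of complex II, and cype (195 bp), a subunit of complex IV. The gene of the alpha subunit of the catalytic head thus had a peak at its TSS, and ATPsynbeta did not. The TCA cycle, which supplies NADH, was listed together with the pyruvate dehydrogenase genes Pdha and Pdhb. This list had peaks at 4 of 4 X-linked genes and 1 of 9 autosomal ones. They included Idh3a (1669 bp) and Pdha (204 bp) on X, Idh3b (344 bp) on 3R, and Fum1, whose peak is the one counted above for ND-ASHI. The list of carriers had a peak at 2 of 2 X-linked genes and at 0 of 2 autosomal ones, Cyt-c-p and Cyt-c-d. Those on X, the adenine nucleotide carriers sesB and Ant2, overlap each other. They shared a HAS interval of 440 bp, whose edge lay 532 bp from a TSS of each. Assembly factors had a peak at 4 of 11, 3 of them on X: Coa8 (1172 bp), ttm50 (408 bp) and Coa7 (160 bp). Ccdc56 on 3L shared a peak of 635 bp with mtTFB1, a mitochondrial transcription factor annotated at the same coordinates. Among 9 regulators of mitochondrial biogenesis, srl (332 bp), the fly PGC-1, and ERR (195 bp) also had a peak. Genes of the cytosolic ribosome, another large assembly, had a peak at 26 of 78 autosomal genes (33.3%), and OXPHOS genes lay 21.6 points below them (-34.0 to -7.97). Without the duplicated genes the autosomal OXPHOS share was 14.9%, and the comparison was not repeated under other windows or rules. On X, 10 of 14 genes of the cytosolic ribosome had a peak, and the difference of -29.8 points had an interval from -57.7 to 7.33. The mitochondrial ribosome had peaks at 10 of 62 autosomal genes (16.1%) and 7 of 11 X-linked genes. OXPHOS genes differed from these by -4.36 points on autosomes (-16.8 to 7.73) and by -22.0 points on X (-52.8 to 16.7). The widest peaks of the cytosolic ribosome were at RpS19a (1203 bp) on X and RpS28a (1006 bp) on 3R, and those of the mitochondrial ribosome at mRpL14 (a summed 1482 bp) on X and mRpS16 (1343 bp) on 2R.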

How the data were processed

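ChIP-seq was carried out on male and female larvae, and 3 deposited lists of MSL2 peaks, made for the series as a whole, were analysed. Bedtools, MACS2 (version 2.1.1.20160309.0) and Bowtie2 (version 2.3.0.1) are in the submitters' processing notes, as are the builds dm6 and BDGP6. The score column of the deposited autosomal list held 0 in all rows and was not used. The libraries, threshold and any pooling behind the lists were details not given in the sources used here. Repeated intervals were counted once (170 rows gave 159 HAS).

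Genes and TSS positions came from Ensembl release 115, and sequences from the RefSeq genome of the same assembly, in which all 80 members matched by symbol with overlapping coordinates. Peaks were joined to genes in Python 3.11.15. Shares are given with 95% Wilson intervals and differences with 95% Newcombe intervals. No p-value was computed. Alternatives varied the window, the TSS and overlap that count, the gene a peak counts for, the peaks and lists used, and the duplicated genes; leaving out the peak over msl-2 and taking ND-MNLL as no duplicate were added after the data were seen. The joining was tested on simulated peaks. Words were searched on both strands.

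Named genes were every member with a TSS peak, every X-linked member, the 5 others nearest to a peak, and up to 4 genes of each related list by summed peak width; genes outside this rule (ND-MLRQ, ND-19, ATPsynbeta and similar) were named after their values were seen. The members and lists were chosen with earlier results of these data known, and the CA repeat and motif 1 were added after the data were seen. Of the listed assembly factors, 2 were not found in the annotation.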

Additional observations from a re-analysis of the deposited data

How the results depend on the processing

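Of 98 alternatives over 14 results, 83 left the value within its own interval or range, 15 moved it and 0 turned the direction of a difference whose interval excluded 0. The GA repeat difference between OXPHOS promoters with and without a peak, whose interval included 0, changed sign in 2 of them, from 4.94 to -6.54 points in 1000 bp windows and to -0.362 without duplicated genes. Counting each peak only for the gene with the nearest TSS left 6 OXPHOS genes (7.5%), 2 on X (16.7%) and 4 on autosomes (5.88%), with 5.0% of complex I and 6.67% of complex V. The genes lost were ND-18, ND-ASHI, ND-PDSW, COX6B, ATPsynCF6, ATPsynG and ATPsyngamma. All genes fell to 11.8%, with 23.0% on X and 9.73% on autosomes. Keeping only intervals of at least the median width of their list gave the same shares, 7.5%, 16.7%, 5.88%, 5.0% and 6.67%, but from other genes. Those lost were ND-75, ND-ASHI, ND-B18, UQCR-C2, ATPsynCF6, ATPsynG and ATPsyngamma. The X-linked genes kept were ND-18 and COX6B, and with the nearest gene only they were ND-75 and ND-B18. Complex III stood at 11.1% with the wider intervals and 22.2% with the nearest gene only, and complex IV at 12.5% and 6.25%. With the wider intervals all genes stood at 8.53%, with 18.9% on X and 6.60% on autosomes. Under both settings the X share of OXPHOS genes thus lay below that of all X genes, not above it as in the main count. In both, the difference between X and autosomes was 10.8 points, with an interval from -3.78 to 39.1 that reached 0. Over all genes it was 19.8 points with 2 kb windows, 13.3 with the nearest gene only, 12.3 with the wider intervals and 14.7 without the HAS list. With 2 kb windows, 95.5% of the OXPHOS peaks were shared, and 17 OXPHOS genes had a peak beside 18.9% of all genes. With these windows complex V stood at 46.7%, and the difference between other and duplicated OXPHOS genes at 23.0 points (3.18 to 36.2).

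No paired analysis was possible because the peak lists name no libraries and each group held 1 library. Precision is limited by the number of genes, 12 on X among them, and the unknown depth bears on every absent peak.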
